A study of Homo sapiens with 24 samples.

Results

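The IL-6 family of cytokines was described in 24 RNA-seq libraries of human sensory neuron cultures through 10 genes, chosen by symbol from the 36468 entries of the count table. These were 4 ligand genes (IL6, IL11, LIF and CLCF1), IL6ST, which encodes the shared receptor chain gp130, and 5 genes of partner chains (LIFR, OSMR, IL6R, IL11RA and CNTFR). Each symbol had 1 entry, no member had a library at 0, and all 10 passed the filter on low counts.

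The cultures were differentiated from H9WA09 cells, an established human embryonic stem cell line, through vagal neural crest spheroids, and they hold other cell types beside neurons. Each of 6 differentiation batches gave 1 library for each of 4 groups. The groups were vehicle (BSA in PBS), TGF-β at 2 ng/ml, IL-4 at 10 ng/ml together with IL-13 at 3 ng/ml (IL-4 + IL-13), and IL-6, whose dose is not given in the sources used here. Exposure lasted 5 days in the first 3 of these groups, and its length for IL-6 is not given either. All batches come from 1 cell line, so the spread between them covers differentiation and not donors.

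Library totals ran from 33342682 to 39817784 counts (median 35775126). All 10 sensory neuron markers were present, with summed normalized counts of 31174.5 to 116220 per library, and so were all 8 fibroblast or mesenchymal markers, with 96451.9 to 491809 per library, and 5 immune markers summed to 398.9 to 1964, with AIF1 at 0 in every library. Batch 1 stood apart with a median neuronal sum of 37716 against 85711 in the other batches, and a median mesenchymal sum of 342650 against 199604. Levels below are size-factor normalized counts, or log2(normalized counts + 1) where stated. In bulk RNA, fewer cells of a type and less RNA per cell cannot be told apart. A total of 4 libraries resembled another batch more than their own over 16900 genes, namely vehicle of batches 2 and 4, TGF-β of batch 4 and IL-4 + IL-13 of batch 4. Vehicle of batch 2 correlated at 0.0558 with its own batch and at 0.424 with batch 4, and vehicle of batch 4 at 0.165 with its own and at 0.417 with batch 2. Whether the labels of these 2 vehicle libraries were exchanged cannot be told from the files. An exchange would leave the groups as they are and would alter the differences from vehicle within batches 2 and 4. The treated libraries of batch 2 also stood apart, with sums of 5 pluripotency markers of 7019 to 8373 normalized counts against 1309 in vehicle of batch 2 and 649.5 to 2878 in the other batches. The calls among the members are given with and without batches 2 and 4.

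IL-6 family cytokines signal by bringing gp130 together with a second chain. IL-6 and IL-11 first bind the receptors IL6R and IL11RA, which carry no kinase of their own and recruit pairs of gp130. LIF joins gp130 to LIFR, oncostatin M joins gp130 to OSMR or LIFR, and CLCF1 acts through CNTFR, gp130 and LIFR. The kinases JAK1, JAK2 and TYK2 then activate STAT3, and SOCS3 is the best known feedback inhibitor. In sensory and autonomic neurons, LIF and CNTF are known for their actions on neuropeptide and transmitter genes, and gp130 signalling for its part in pain.

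Each call below used the same rule, a Benjamini-Hochberg adjusted p under 0.05 over all 29377 genes tested and a log2 fold change beyond 1, from edgeR's quasi-likelihood test with batch and treatment in the model. SE is an approximate standard error, the size of the fitted log2 fold change divided by the square root of the test's F statistic.

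Upstream sequence is shown for IL11 and IL6, the ligand genes whose fitted differences between TGF-β and IL-4 + IL-13 had opposite signs and that have an entry among the RefSeq promoter sequences (GRCh38.p14), which covered 8 of the 10 members. Each run is the 250 bases before the annotated start, 5′ to 3′ on the gene's strand, and capitals mark matches to the motifs searched on both strands. IL11 lies at chr19:55364382-55370463 with no other RefSeq gene over it, and its upstream run is chr19:55370464-55370713 (minus strand). IL6 lies at chr7:22727200-22731998, where the RNA gene IL6-AS1 also lies, and its upstream run is chr7:22726950-22727199 (plus strand).
IL11: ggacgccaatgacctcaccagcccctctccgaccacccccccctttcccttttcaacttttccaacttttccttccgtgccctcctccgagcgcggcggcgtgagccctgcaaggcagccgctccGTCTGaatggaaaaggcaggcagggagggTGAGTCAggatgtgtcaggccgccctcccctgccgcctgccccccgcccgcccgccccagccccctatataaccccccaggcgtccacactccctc
IL6: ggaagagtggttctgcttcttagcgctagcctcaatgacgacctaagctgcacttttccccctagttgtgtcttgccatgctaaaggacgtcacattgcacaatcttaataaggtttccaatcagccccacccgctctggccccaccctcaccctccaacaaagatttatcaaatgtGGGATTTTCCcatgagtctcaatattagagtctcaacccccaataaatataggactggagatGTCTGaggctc

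The IL11 run holds the AP-1 motif TGANTCA once, at -96 to -90 from the start, and the SMAD motif CAGAC once on the other strand, at -125 to -121. The IL6 run holds the NF-kB motif (GGGA, any base, TTTCC) once, at -73 to -64, and CAGAC once on the other strand, at -11 to -7. No match overlapped another. Of 35116 promoters of the same length, 6.57% held TGANTCA, 38.0% held CAGAC and 0.527% held the NF-kB motif on either strand. The STAT motif TTCNNNGAA, present in 6.57% of promoters, matched in 2 of the 3 LIFR runs and in no run of the other members. The STAT6 motif (TTC and GAA with 4 bases between, 5.38% of promoters) and the CRE motif TGACGTCA (1.65%) matched in no run of the 8 members. These are matches of letters and say nothing of binding.

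In vehicle cultures the members spanned a wide range of levels per exon length. Normalized counts were divided by the exon bases of each gene's canonical GENCODE transcript, so levels here are normalized counts per kilobase. IL6ST was the highest member at 849 ± 180.0 (SD, n = 6), followed by the CNTF receptor gene CNTFR at 660.2 ± 198, LIF at 646 ± 573, IL11RA at 516 ± 50.4 and IL11 at 470.0 ± 414. LIFR stood at 345 ± 193, OSMR at 158 ± 82.5, IL6 at 90.0 ± 69.2 and CLCF1 at 67.7 ± 33. IL6R, the receptor that gives a cell its direct response to IL-6, was lowest at 36.9 ± 10.9. The order used the mean of the log2 levels.

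Only part of that order held in every batch. IL6ST was above CNTFR, and CLCF1 above IL6R, in 6 of 6 vehicle libraries, while LIF was above IL11RA in 2, IL11 above LIFR in 2 and IL6 above CLCF1 in 2. CNTFR was above LIF, IL11RA above IL11, LIFR above OSMR and OSMR above IL6 in 5 of 6. The mean log2 difference between neighbours exceeded its own SD over batches for IL6ST and CNTFR (0.42 ± 0.39), for CLCF1 and IL6R (0.81 ± 0.46) and, by little, for OSMR and IL6 (0.94 ± 0.92). With the union of all annotated exons as the length, IL6 moved from rank 8 to rank 10, IL6R from 10 to 9 and IL11RA from 4 to 6.

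**Figure D1:**
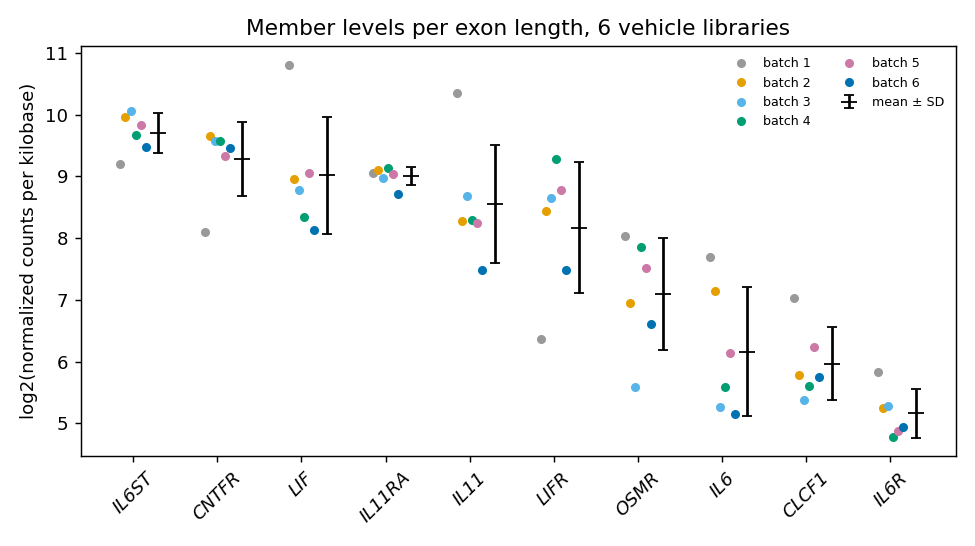
Level of each member per exon length in the 6 vehicle libraries. The vertical axis is log2 of normalized counts per kilobase of the canonical transcript, points are libraries coloured by batch, and bars are mean ± SD. IL6ST is highest and IL6R lowest, and batch 1 lies above the other batches for LIF, IL11, CLCF1, IL6, OSMR and IL6R and below them for IL6ST, CNTFR and LIFR.

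IL11, LIF and CLCF1 were higher after TGF-β than after IL-4 + IL-13. This comparison called 3 of the 10 members higher and 0 lower, where 0.47% of all genes tested were called higher and 1.18% in either direction. The ligand genes called were those of a fibrosis-linked cytokine (IL11), of leukaemia inhibitory factor, a neuropoietic cytokine (LIF), and of cardiotrophin-like cytokine factor 1 (CLCF1).

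IL11 ranged from 1003 to 4063 normalized counts in the TGF-β libraries (median 2049) and from 204 to 949 in the IL-4 + IL-13 libraries (median 561). These groups did not overlap. The fitted log2 fold change was 1.82 (SE 0.17, adjusted p = 7.27e-06), and TGF-β was higher in 6 of 6 batches, by 1.32 to 2.29 on the log2 scale.

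LIF ranged from 1634 to 10579.5 normalized counts after TGF-β (median 3092) and from 567 to 1292 after IL-4 + IL-13 (median 823). These groups did not overlap either. The log2 fold change was 2.00 (SE 0.24, adjusted p = 9.71e-05), and the within-batch differences were 1.53 to 3.03, the largest in batch 1. The RefSeq interval of LIF is chr22:30240453-30246759, where LIF-AS1 and LIF-AS2 also lie, and reads from both strands cannot be told apart here because the counting is not stated to use strand.

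CLCF1 ranged from 95.5 to 324 normalized counts after TGF-β (median 117) and from 44.7 to 111 after IL-4 + IL-13 (median 64.6), and these ranges overlapped. Within batches TGF-β was higher in 6 of 6, by 0.50 to 1.54. The log2 fold change was 1.04 (SE 0.14, adjusted p = 0.000241). It passed the adjusted p but not the fold threshold without batch 1 (0.93) or without batch 6 (0.97). CLCF1 spans chr11:67364168-67374177 together with the RNA gene LOC100130987.

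All 3 of these calls held without batches 2 and 4 (log2 fold changes 2.05, 2.23 and 1.14). Without only the vehicle libraries of those batches the values were 1.83, 2.00 and 1.05. That setting is no check of these calls, because vehicle is in neither group compared and batch is in the model. IL11 and LIF also held without each batch in turn.

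Mesenchymal markers, as a sum, differed in the same direction. The summed level of the 8 fibroblast or mesenchymal markers was higher after TGF-β than after IL-4 + IL-13 in 6 of 6 batches, by 0.63 ± 0.44 on the log2 scale (SD, n = 6). The sums were 150600 to 491809 after TGF-β, 96451.9 to 232084 after IL-4 + IL-13, 116721 to 382881 in vehicle and 126964 to 302419 after IL-6. By the same fit, COL1A1, a chain of type I collagen, was the only one of the 8 called in this comparison, at 1.31 (SE 0.26, adjusted p = 0.00675), and the log2 fold changes of COL1A2, COL3A1, PDGFRA, PDGFRB, DCN, LUM and THY1 lay between -0.17 and 0.39. The sum of 8 Schwann or satellite glia markers was also higher in 6 of 6 batches (0.52 ± 0.23), and that of 10 sensory neuron markers in 4 of 6 (0.06 ± 0.35). The sum of 4 endothelial markers was lower after TGF-β in 6 of 6 batches (-1.25 ± 0.29), with 577.8 to 2706 normalized counts after TGF-β and 998 to 5713 after IL-4 + IL-13. Of the single markers, 1 of 8 glia, 1 of 10 sensory neuron and 1 of 4 endothelial genes were called in this comparison. Only 2 of the 4 endothelial markers had a median count of at least 10 after TGF-β. A few genes may thus carry a sum. The part of these shifts in the ligand differences was not tested.

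**Figure D2:**
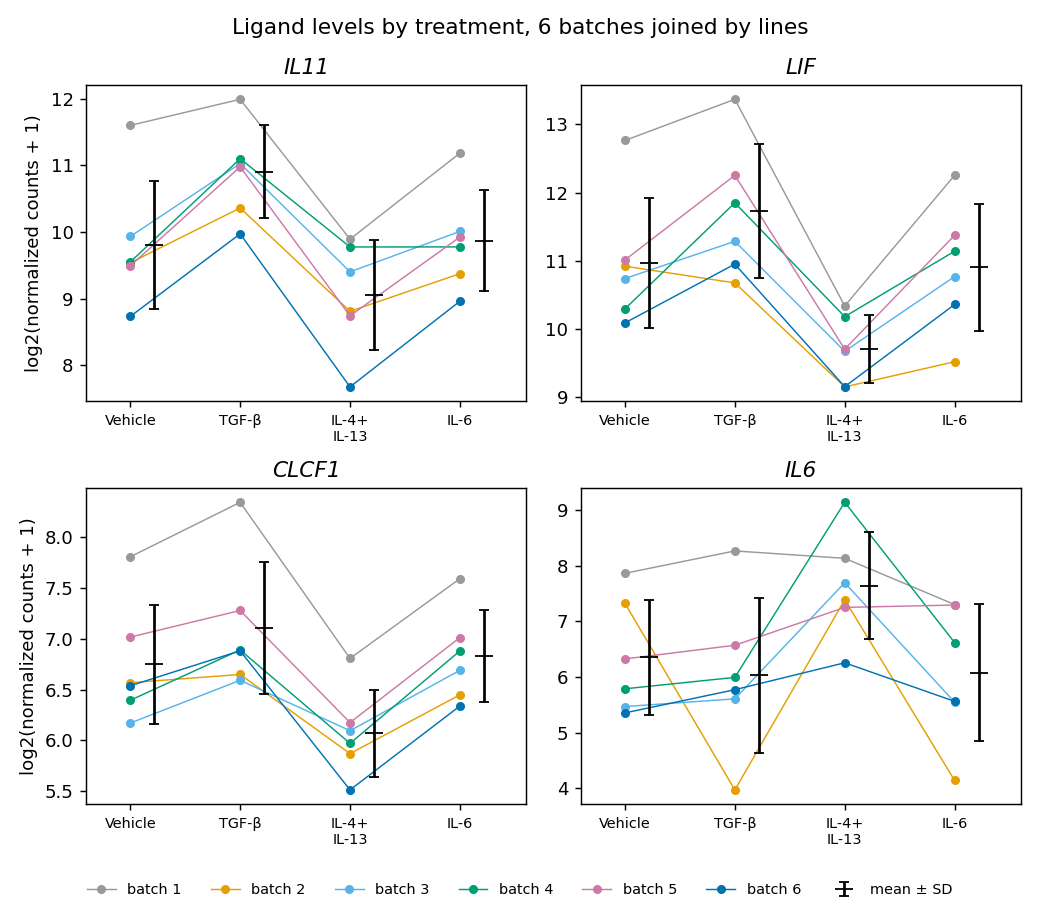
Levels of the 4 ligand genes in the 24 libraries. The vertical axes are log2(normalized counts + 1) on a separate scale for each gene, each line joins the 4 libraries of 1 batch, and bars are mean ± SD over 6 batches. For IL11, LIF and CLCF1 every line falls from TGF-β to IL-4 + IL-13, while for IL6 batches 2, 3 and 4 rise steeply and batch 2 is low after TGF-β and IL-6.

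Against vehicle, TGF-β called IL11 and no other member. IL11 ranged from 424 to 3097 normalized counts in vehicle (median 745), and the highest value was that of batch 1. TGF-β exceeded vehicle in 6 of 6 batches, by 0.39 to 1.55, with the smallest difference in batch 1. The fitted log2 fold change was 1.07 (SE 0.17, adjusted p = 0.0122, and 9.55e-07 with DESeq2), where 0.143% of all genes tested were called in either direction and 0.0408% were called higher. The call stood close to both thresholds. It was lost without batch 3 (adjusted p = 0.0978), without batch 5 (0.119), without batch 4 (log2 fold change 0.999, adjusted p = 0.0222), without batches 2 and 4 (0.0506) and without the vehicle libraries of batches 2 and 4 (log2 fold change 0.98, adjusted p = 0.0359).

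The other ligand genes did not pass under TGF-β. LIF ranged from 1087 to 6960.4 normalized counts in vehicle (median 1822). Its log2 fold change was 0.71 (SE 0.23, adjusted p = 0.33), with 5 of 6 batches higher and a difference of -0.24 in batch 2. CLCF1 ranged from 71.1 to 223 normalized counts in vehicle (median 93.0). TGF-β was above it in 6 of 6 batches, and the log2 fold change was 0.36 (SE 0.14, adjusted p = 0.506). Without batches 2 and 4 these values were 0.80 for LIF (adjusted p = 0.265) and 0.39 for CLCF1 (adjusted p = 0.63).

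IL-4 + IL-13 called LIF lower and no other member. LIF ranged from 567 to 1292 normalized counts, below vehicle in 6 of 6 batches, with a difference of -2.43 in batch 1, -0.11 in batch 4 and -1.77 to -0.94 in the rest. The log2 fold change was -1.29 (SE 0.24, adjusted p = 0.0118, and 9.8e-06 with DESeq2), where 0.371% of all genes tested were called in either direction and 0.143% were called lower. CLCF1 fell in 6 of 6 batches, with a log2 fold change of -0.69 (SE 0.14, adjusted p = 0.0276), and IL11 fell in 5 of 6, with -0.74 (SE 0.17, adjusted p = 0.0497). CLCF1 and IL11 passed the adjusted p without reaching the fold threshold, and by adjusted p alone 0.262% of all genes were lower.

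Each of these 3 differences lost its adjusted p when some single batches were left out. The adjusted p of LIF rose to 0.0843 without batch 1, to 0.0734 without batch 3, to 0.0683 without batch 5 and to 0.0636 without batch 6. That of CLCF1 rose to 0.158, 0.0618, 0.19 and 0.225 without batches 1, 2, 5 and 6 respectively and to 0.104 without batches 2 and 4, and that of IL11 to 0.24, 0.139, 0.158, 0.174 and 0.246 without batches 1, 2, 3, 5 and 6. The IL11 value also crossed the threshold with DESeq2 size factors in the edgeR fit (adjusted p = 0.0509) and with no filter on low counts (0.0549). Without the vehicle libraries of batches 2 and 4, LIF stood at -1.25 (adjusted p = 0.0123). Without both of these batches LIF (-1.42, adjusted p = 0.0154) and IL11 (-1.02, adjusted p = 0.0171) met the call rule.

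Beside these values, the mesenchymal marker sum was lower after IL-4 + IL-13 than in vehicle in 5 of 6 batches (-0.47 ± 0.56) and higher after TGF-β than in vehicle in 5 of 6 (0.16 ± 0.53). Of its 8 genes, 0 were called in either comparison with edgeR or DESeq2, and 1 (COL1A1, lower after IL-4 + IL-13) had an unadjusted p under 0.05. The Schwann or satellite glia sum was higher after TGF-β than in vehicle in 6 of 6 batches (0.45 ± 0.33), with 1 of its 8 genes called. The endothelial sum was lower after TGF-β than in vehicle in 5 of 6 (-0.74 ± 0.61) and higher after IL-4 + IL-13 in 5 of 6 (0.51 ± 0.81). Of its 4 genes, 0 were called in either comparison. The part of these shifts in the differences from vehicle was not tested.

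IL6 itself had the opposite sign and did not pass the test. Its counts were low, from 39.9 to 232 normalized counts in vehicle (median 66.8), 14.7 to 308 after TGF-β (median 58.2), 75.4 to 565 after IL-4 + IL-13 (median 187) and 16.6 to 157 after IL-6 (median 71.9). All 4 groups overlapped. IL-4 + IL-13 exceeded vehicle in 6 of 6 batches, but by 0.06 in batch 2 and 0.27 in batch 1 against 3.36 in batch 4 and 2.23 in batch 3. The log2 fold change was 1.28 (SE 0.51, adjusted p = 0.447), with 1.15 (adjusted p = 0.212) without batches 2 and 4, 1.72 (adjusted p = 0.193) without their vehicle libraries and 0.82 (adjusted p = 0.5) without batch 4.

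The TGF-β value of IL6 turned on 1 batch. The log2 fold change was -0.31 (SE 0.52, adjusted p = 0.972), made of -3.36 in batch 2 and 0.14 to 0.42 in the other 5 batches. Without batch 2 it was 0.30, and without the vehicle libraries of batches 2 and 4 it was 0.04. TGF-β compared with IL-4 + IL-13 gave -1.59 (SE 0.52, adjusted p = 0.132 with edgeR and 0.021 with DESeq2), with IL6 lower after TGF-β in 5 of 6 batches. That difference passed with edgeR without the vehicle libraries of batches 2 and 4 (-1.69, adjusted p = 0.0276), although vehicle is in neither group compared. It was -0.83 (adjusted p = 0.268) without batches 2 and 4 and -1.18 (adjusted p = 0.438) without batch 4.

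The genes whose pattern was most like that of each ligand are given as a description. Likeness was Pearson's r of log2 levels after subtraction of batch means over 24 libraries, which share batches, with 13292 candidate genes. For IL11 the nearest genes were R3HDML (0.96), PMEPA1 (0.95), an inhibitor of TGF-β signalling, and PLAUR (0.94), the urokinase receptor. For LIF they were TGFBI (0.98), a matrix protein named for its induction by TGF-β, the collagen-binding integrin ITGA11 (0.98) and LTBP2 (0.97). LTBP2 belongs by name to the family of latent TGF-β binding proteins. For CLCF1 they were TMEM92 (0.91), ITGA11 (0.91) and BIRC7 (0.91). For IL6 they were the chemokines CXCL1 (0.92) and CXCL6 (0.90), and ADAMTSL4 (0.87). Among the members, r was 0.92 for IL11 with LIF, 0.90 for LIF with CLCF1 and 0.85 for IL11 with CLCF1, and between -0.41 and -0.29 for IL6 with each of them. Treatment means were not subtracted, so treatment differences enter every r. The values among IL11, LIF and CLCF1 are therefore not independent of their calls above.

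IL-6 treatment called 0 of the 10 members, and 0% of all genes tested, with edgeR. At an unadjusted p under 0.05 it gave 1400 of the 29377 genes tested, and 0 members. That count is below the share of 0.05 that chance alone gives with no effect. DESeq2 called 120 genes and 0 members. IL11 ranged from 497 to 2321 normalized counts after IL-6 (median 922), LIF from 732 to 4881 (median 1999) and CLCF1 from 80.0 to 192 (median 109.6). These ranges overlapped those of vehicle. The log2 fold changes were 0.04 (SE 0.17) for IL11, -0.10 (SE 0.23) for LIF, 0.08 (SE 0.14) for CLCF1 and -0.30 (SE 0.52) for IL6, with adjusted p values of 0.975, 0.954, 0.94 and 0.932. For IL6 the batch 2 difference of -3.19 set the sign, and the value was 0.31 without batch 2.

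The other treatments were also set against IL-6. These comparisons share their treated libraries with the ones above, so they are not independent of them. TGF-β called IL11 higher, at 1.03 (SE 0.17, adjusted p = 0.025, 6 of 6 batches), where 0.0306% of all genes were called in either direction and 0.0272% higher. LIF was also higher after TGF-β in 6 of 6 batches, at 0.81 (SE 0.23, adjusted p = 0.245 with edgeR, 0.0323 with DESeq2 and 0.00858 with edgeR on only the groups compared). IL-4 + IL-13 called LIF lower, at -1.19 (SE 0.24, adjusted p = 0.0243, 6 of 6 batches), where 0.279% were called in either direction and 0.0783% lower. CLCF1 (-0.76, adjusted p = 0.014) and IL11 (-0.79, adjusted p = 0.04) were also lower in 6 of 6 batches, short of the fold threshold, and by adjusted p alone 0.129% of all genes were lower. The IL11 call against IL-6 was lost without batch 3 (adjusted p = 0.242), batch 5 (0.181), batch 6 (0.0578) or batch 4 (log2 fold change 0.98) and without batches 2 and 4 (0.0866), and the LIF call without batch 1 (0.1), 3 (0.141), 5 (0.196) or 6 (0.157). The adjusted p of CLCF1 rose above 0.05 without batch 1 (0.0599), 4 (0.0888), 5 (0.117) or 6 (0.106) and without batches 2 and 4 (0.127), and that of IL11 without batch 1 (0.0879), 2 (0.0895), 3 (0.162), 5 (0.294) or 6 (0.319).

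**Figure D3:**
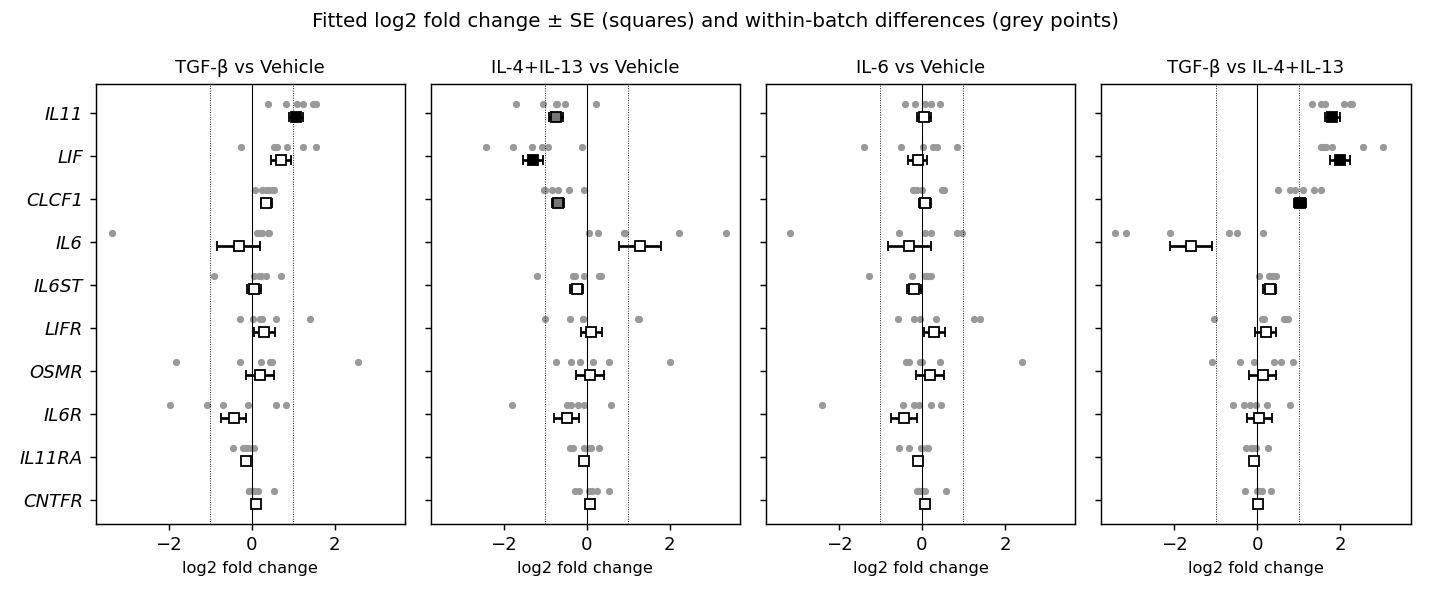
Fitted log2 fold change of each member in 4 comparisons. Squares are edgeR estimates with SE bars, filled black where the call rule was met and grey where only the adjusted p passed, grey points are the 6 within-batch differences of log2(normalized counts + 1), and dotted lines mark a log2 fold change of 1. Black squares appear for IL11 under TGF-β, for LIF under IL-4 + IL-13, and for IL11, LIF and CLCF1 where these treatments are set against each other, and for no receptor gene.

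No receptor gene passed the test in any of the 6 comparisons between groups. Over the 36 tests of 6 receptor genes, 0 were called with edgeR or DESeq2 and 0 had an unadjusted p under 0.05. IL6ST, the shared chain, ranged from 5314 to 9664 normalized counts in vehicle, 4766 to 12002 after TGF-β, 3922 to 9226 after IL-4 + IL-13 and 3684.5 to 9112 after IL-6. All groups overlapped, and batch 2 was the lowest of the 6 batches in the 3 treated groups and the second highest in vehicle. Log2 fold changes against vehicle were 0.06 (SE 0.16) with TGF-β, -0.24 (SE 0.16) with IL-4 + IL-13 and -0.19 (SE 0.16) with IL-6, with adjusted p values of 0.983, 0.693 and 0.86. Between TGF-β and IL-4 + IL-13, IL6ST was higher after TGF-β in 6 of 6 batches, at 0.30 (SE 0.16, adjusted p = 0.501).

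LIFR and OSMR, the chains that pair with gp130, varied mostly with batch. LIFR ranged from 868 to 6589.8 normalized counts in vehicle, 1004 to 9626 after TGF-β, 1774 to 8613 after IL-4 + IL-13 and 2053 to 9689.8 after IL-6. OSMR ranged from 267 to 1451 in vehicle, 364 to 4066.5 after TGF-β, 387 to 2732 after IL-4 + IL-13 and 364 to 3620.2 after IL-6. In all 3 treated groups the highest library of both genes was that of batch 2, whose vehicle library lay below them by 1.24 to 1.41 for LIFR and by 2.00 to 2.57 for OSMR on the log2 scale. Other batches also moved. LIFR differed from vehicle in batch 1 by 1.25 after IL-4 + IL-13, 1.24 after IL-6 and 0.21 after TGF-β. In batch 4 the difference was -1.01 for LIFR after IL-4 + IL-13 and -1.82 for OSMR after TGF-β. Fitted log2 fold changes lay between 0.11 and 0.31 for LIFR (SE 0.25, adjusted p from 0.863 to 0.939) and between 0.08 and 0.21 for OSMR (SE 0.34, adjusted p from 0.936 to 0.975). Without batch 2 the OSMR values were -0.14 after TGF-β, -0.15 after IL-4 + IL-13 and -0.10 after IL-6, and LIFR under IL-4 + IL-13 was -0.09. Without batch 1 that LIFR value was -0.12. LIFR lies at chr5:38474668-38608403 with LIFR-AS1, MIR3650 and LOC105374735 in the same interval. OSMR lies at chr5:38846012-38945579, where it shares bases with RICTOR (866 to 1553 counts), so counts of this gene are uncertain to that extent.

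The ligand-binding receptors IL6R, IL11RA and CNTFR did not pass either. IL6R ranged from 157 to 328 normalized counts in vehicle, 55.5 to 337 after TGF-β, 62.3 to 253 after IL-4 + IL-13 and 41.0 to 239 after IL-6. Its treated libraries of batch 2 were below the vehicle library of that batch, with log2 differences of -1.80 to -2.40. The fitted values were -0.43 (SE 0.31) with TGF-β, -0.48 (SE 0.30) with IL-4 + IL-13 and -0.44 (SE 0.31) with IL-6, with adjusted p values of 0.873, 0.668 and 0.85. IL6R spans chr1:154405343-154469450 with IL6R-AS1 and PSMD8P1.

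IL11RA was the steadiest member. It ranged from 727 to 967 normalized counts in vehicle, 687 to 950.4 after TGF-β, 697 to 1058 after IL-4 + IL-13 and 650.3 to 1059 after IL-6, and the SD of its log2 level over the 24 libraries was 0.21, against 0.42 to 1.28 for the other members. Log2 fold changes against vehicle were -0.14 with TGF-β, -0.06 with IL-4 + IL-13 and -0.10 with IL-6 (SE 0.09 each, adjusted p from 0.826 to 0.894). CCL27, which overlaps IL11RA at chr9:34652185-34661902, had 4 to 17 counts per library.

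CNTFR followed batch most closely. It ranged from 558 to 1651 normalized counts in vehicle, 535 to 2407 after TGF-β, 658 to 2387 after IL-4 + IL-13 and 583 to 2458 after IL-6, with batch 1 lowest and batch 2 highest in all 4 groups. Batch accounted for 95.4% of the sum of squares of its log2 levels and treatment for 0.492%. In the same order of treatments, the log2 fold changes were 0.11, 0.08 and 0.07 (SE 0.09 each, adjusted p from 0.836 to 0.913). CNTFR lies at chr9:34551433-34590852 with CNTFR-AS1 and LOC105376023, and IL6ST at chr5:55935095-55994963 with no other RefSeq gene.

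**Figure D4:**
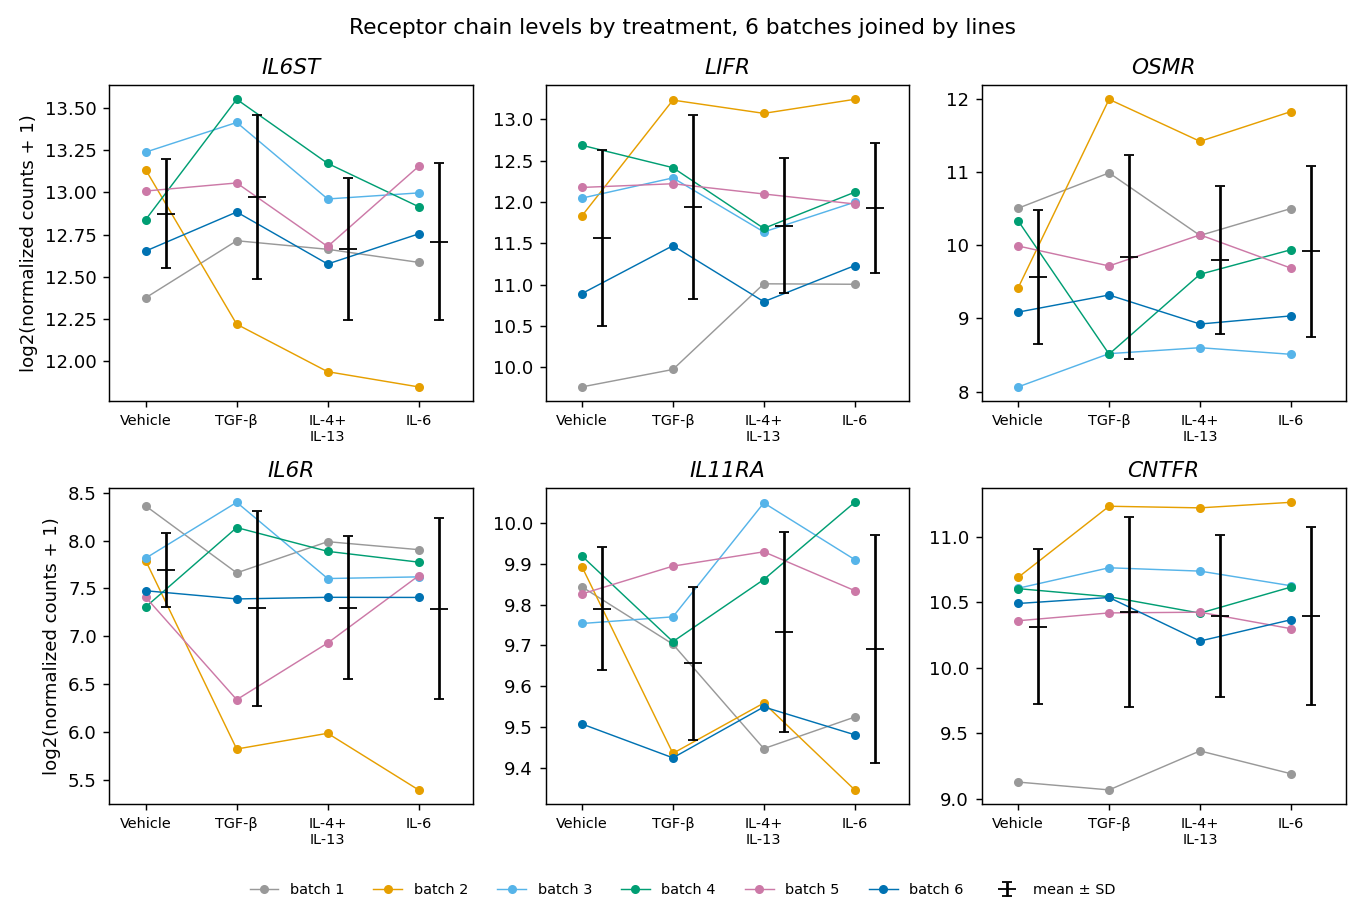
Levels of the 6 receptor genes in the 24 libraries. The vertical axes are log2(normalized counts + 1) on a separate scale for each gene, lines join the 4 libraries of a batch and bars are mean ± SD over 6 batches. Batch 2 changes sharply between vehicle and the treated libraries for IL6ST, LIFR, OSMR and IL6R. Batch 1 also rises for LIFR after IL-4 + IL-13 and IL-6, and batch 4 falls for OSMR after TGF-β. Against vehicle no receptor gene moves in the same direction in all 6 batches. IL6ST is higher after TGF-β than after IL-4 + IL-13 in each batch.

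Over the 10 members the median log2 fold change against vehicle was 0.16 after TGF-β, -0.15 after IL-4 + IL-13 and -0.03 after IL-6, against -0.01 over all genes in each of these comparisons. Batch and treatment took different shares in ligands and receptors. For the receptor genes batch accounted for 57.1% (IL6ST) to 95.4% (CNTFR) of the sum of squares of log2 levels over 24 libraries, and treatment for 0.492% (CNTFR) to 9.22% (IL6ST). For LIF the shares were 43.4% for batch and 45.9% for treatment, for IL11 49.8% and 44.1%, for CLCF1 55.2% and 37.4%, and for IL6 38.2% and 27.5%. In likeness after subtraction of batch means, the nearest genes of IL6ST were NCOA7, IDS and GNPTAB (0.95 each). Those of LIFR were SOX11 (0.97), THSD7A (0.96) and PPM1L (0.95). Those of OSMR were IER5 (0.93), EPHB3 (0.93) and KIRREL2 (0.92). Those of IL6R were NEB (0.93), RAPGEF1 (0.92) and ZHX3 (0.92). Those of IL11RA were ATG16L2 (0.87), EME2 (0.87) and HDAC10 (0.86). Those of CNTFR were ZDHHC22 (0.91), CENPV (0.89) and NCOA5 (0.89). In batch 2 the vehicle library stood apart from the treated libraries in log2 level. It had 9.42 against 11.42 to 11.99 for OSMR, 7.79 against 5.39 to 5.98 for IL6R and 13.13 against 11.85 to 12.22 for IL6ST. The part of batch 2 in the receptor correlations was not tested.

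The remaining genes of the family showed no call with edgeR or DESeq2 against vehicle. Of 9 further ligand and receptor genes, 7 passed the filter on low counts, and IL27 and IL31 had 0 counts in every library. Unadjusted p values under 0.05 numbered 2 after TGF-β, 2 after IL-4 + IL-13 and 1 after IL-6. Over the 29377 genes tested they numbered 2141, 2673 and 1400. IL31RA stood at -0.95 (SE 0.32, adjusted p = 0.302) and IL27RA at -0.63 (SE 0.26, adjusted p = 0.454) after IL-4 + IL-13. The mean log2 level of IL31RA was 6.00 in vehicle and lower in every treated group. It was 5.24 after TGF-β, 5.16 after IL-4 + IL-13 and 5.26 after IL-6. For IL27RA the means were 6.42 in vehicle, 6.54 after TGF-β, 5.74 after IL-4 + IL-13 and 6.07 after IL-6. CNTF had 61 to 174 raw counts per library, CTF1 66 to 167, and EBI3 15 to 224. OSM, the ligand of OSMR, had at most 6 counts in any library.

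No downstream gene was called under IL-6. Of 11 kinases, STATs and adaptors, 11 feedback inhibitors and 25 genes known as STAT3 targets, 0 were called after IL-6 with edgeR or DESeq2, and the list medians of log2 fold change were -0.06, 0.06 and 0.03 against -0.01 over all genes. At an unadjusted p under 0.05 these lists held 2, 0 and 0 genes. SOCS3 stood at 0.09 (SE 0.09, adjusted p = 0.882), higher in 3 of 6 batches, and STAT3 at -0.20 (SE 0.09, adjusted p = 0.85). Under TGF-β the same lists had 0 calls and medians of -0.03, 0.01 and 0.00, with 0, 0 and 3 genes at an unadjusted p under 0.05, where the median over all genes was -0.01. At that p, all genes tested gave 2141 of 29377.

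IL-4 + IL-13 called 1 of the 11 feedback inhibitors and 1 of the 25 STAT3 targets, where 0.371% of all genes tested were called in either direction. Both counts were also 1 without batches 2 and 4 and without their vehicle libraries. CISH, a SOCS family inhibitor that STAT5 and STAT6 are known to induce, rose in 6 of 6 batches by 4.40 on the log2 scale (SE 0.38, adjusted p = 7.07e-06). SERPINA3, the acute-phase protease inhibitor antichymotrypsin, fell in 6 of 6 batches, with -1.23 (SE 0.20, adjusted p = 0.00395). CEBPD, a transcription factor of the acute-phase response, stood at 0.64 after IL-4 + IL-13 (adjusted p = 0.0796 with edgeR and 0.00841 with DESeq2) and at -0.50 after TGF-β (adjusted p = 0.289), with all 6 batches on 1 side in each. CCL2 stood at 0.58 after IL-4 + IL-13 (adjusted p = 0.209). The list medians were -0.05 for kinases, STATs and adaptors, -0.05 for feedback inhibitors and -0.09 for STAT3 targets, against -0.01 over all genes. At an unadjusted p under 0.05 these lists held 1, 2 and 7 genes, where all genes tested gave 2673 of 29377.

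Other lists of the pathway gave no calls with edgeR in any comparison with vehicle. These were 12 acute-phase genes (10 tested), 11 genes that LIF and CNTF are known to move in neurons (10 tested), 4 genes of IL6R shedding and 8 regulators of IL6 mRNA or NF-kB. In that order of lists, unadjusted p values under 0.05 numbered 3, 0, 1 and 0 after TGF-β. They numbered 3, 2, 2 and 2 after IL-4 + IL-13 and 0, 0, 1 and 0 after IL-6. Over the 29377 genes tested they numbered 2141, 2673 and 1400 in the same order of treatments. DESeq2 called 1 acute-phase gene after TGF-β, where it called 234 of all genes. After IL-4 + IL-13 it called 1 gene of each of the first 2 lists, where it called 292 of all genes. SAA1, an acute-phase protein, had 0 to 299 raw counts in vehicle and 6 to 235 after IL-4 + IL-13, with a log2 fold change of 2.58 (adjusted p = 0.102 with edgeR and 0.00163 with DESeq2). The neuropeptide gene GAL stood at -1.25 after IL-4 + IL-13 (adjusted p = 0.161 with edgeR and 0.0134 with DESeq2), lower in 5 of 6 batches. RHBDF1, a partner of the sheddase ADAM17, stood at -0.37 (adjusted p = 0.437), and NFKB1 at 0.27 (adjusted p = 0.327), both after IL-4 + IL-13.

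**Figure D5:**
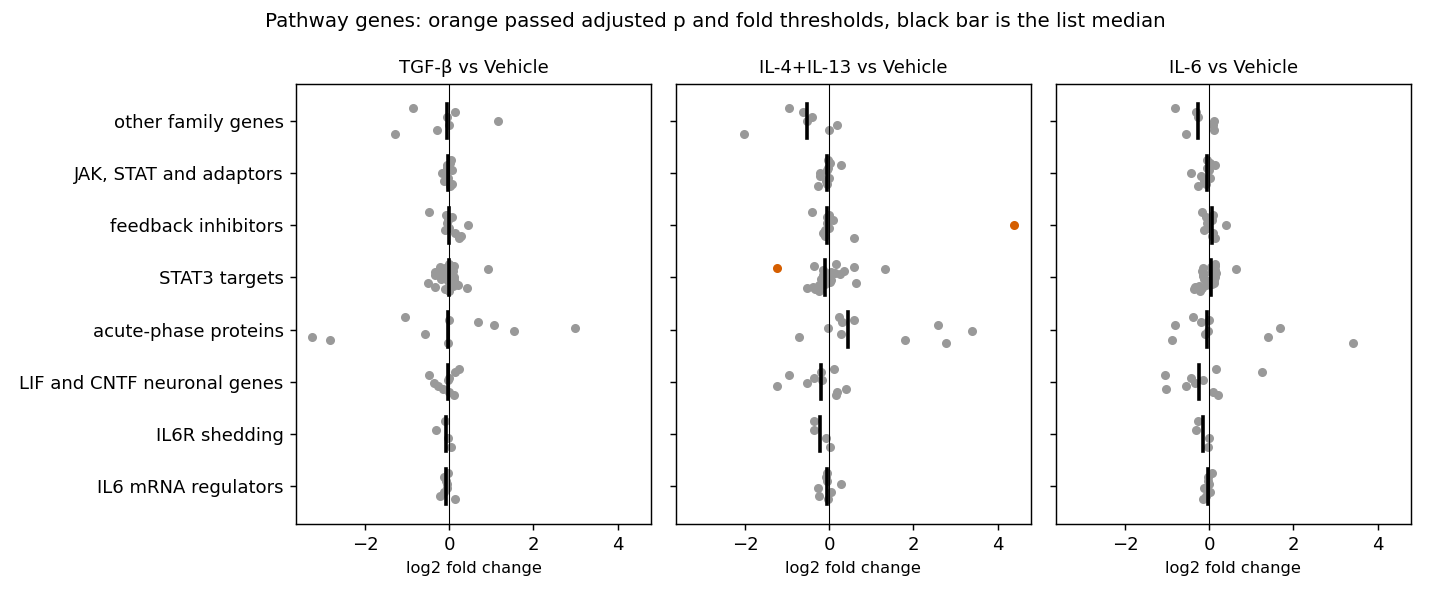
Log2 fold change of every tested gene of 8 pathway lists against vehicle, with the 3 treatments in separate panels. Each point is 1 gene, orange marks genes that met the call rule and black bars are list medians. Orange appears for CISH and SERPINA3 under IL-4 + IL-13 and for no gene under TGF-β or IL-6.

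Genes that mark the treatments themselves were read in the same fit. Of 5 genes known to respond to IL-4 and IL-13, 4 rose after IL-4 + IL-13, namely CISH, the lipoxygenase gene ALOX15 (10.58, adjusted p = 1.28e-10), the eotaxin gene CCL26 (7.86, adjusted p = 1.63e-06) and the decoy receptor gene IL13RA2 (1.31, adjusted p = 0.00077). ALOX15 had at most 21 raw counts and CCL26 at most 5 in any vehicle library, so the size of these fitted values depends on the prior count. Of 8 genes known to respond to TGF-β, 0 were called after TGF-β with edgeR or DESeq2, though 4 had an unadjusted p under 0.05, PMEPA1 being nearest at 0.88 (adjusted p = 0.0977 with edgeR, 0.00521 with DESeq2). After IL-4 + IL-13, 0.143% of all genes were called lower with edgeR, and DESeq2 called 146 lower. Of the 8 listed genes 3 were called lower with both, and the list median was -0.79. TGFBI (-1.55, adjusted p = 0.00975) and LTBP2 (-1.12, adjusted p = 0.0497) were among them, and the count was 1 without batch 1. TGFBI and LTBP2 are also among the genes nearest to LIF above.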

How the data were processed

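Raw read counts per gene entry were deposited by the authors for 24 bulk RNA-seq libraries, 1 column each, with GRCh38.p14 as the reference. The submitters' processing notes name Trimmomatic 0.30 and DESeq2. Aligner, counter and use of strand are not given in the sources used here. Of the 36468 entries, 13161 are loci without a gene symbol. No library duplicated another.

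Entries with a total count of at least 10 (29377) were fitted in R 4.3.3 with edgeR 4.0.16, using TMM normalization, batch and treatment as terms and the robust quasi-likelihood F test, and adjusted p values are Benjamini-Hochberg over all of them. DESeq2 1.42.0 was run beside it and gave the size factors for levels, log2(normalized count + 1). Both were also run on simulated counts for TGF-β against vehicle, with set changes larger than the fold threshold. The outcome of that run is not given here, and it is no check of calls near the thresholds. The batch number in the labels pairs the libraries. Deviations from group means had a median correlation of 0.638 over 36 pairs of 1 batch, with a lowest value of -0.0604, and -0.171 over 240 pairs of different batches. With batch in the model, p values are set against the spread of treatment differences over batches and not against differences in level between batches. Batches are differentiations of 1 line, so that spread does not cover donors.

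Alternatives were other normalizations, tests, filters, models and libraries left out. The members, gene lists and markers were chosen with earlier results of these data known. Named beside all members were the 3 genes most alike to each (mean count at least 50), every gene of a list called against vehicle, otherwise up to 3 of a list with the smallest adjusted p, and family genes with a mean count of at least 10. SOCS3, STAT3 and OSM are named for their place in the pathway, chosen after their values were seen. Some genes that meet this rule are not reported here.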

Additional observations from a re-analysis of the deposited data

Results flagged for a closer look

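Of 70 sets of 6 values examined (levels of each member by group, and differences from vehicle within batches), 10 held a value set apart from the rest by Dixon's test, where chance gives about 1 in 20. Of these, 8 were values of batch 2 and 2 of batch 1. For IL6 the batch 2 difference was -3.36 for TGF-β against 0.14 to 0.42 in the other batches, and -3.19 for IL-6 against -0.56 to 0.97. For IL-6 against vehicle, batch 2 also stood apart for IL6ST (-1.29 against -0.24 to 0.21), OSMR (2.41 against -0.39 to 0.44), IL6R (-2.40 against -0.46 to 0.47) and CNTFR (0.57 against -0.12 to 0.06), and for TGF-β against vehicle for CNTFR (0.54 against -0.06 to 0.16). The log2 level of IL6R in the IL-6 library of batch 2 was 5.39 against 7.41 to 7.91. The vehicle library of batch 2, to which these differences refer, is 1 of the 4 that resembled another batch more than their own, and the treated libraries of batch 2 had pluripotency marker sums of 7019 to 8373 against 1309 in that vehicle library. Their part in these values was not tested. In the vehicle library of batch 1 the log2 level of LIF was 12.77 against 10.09 to 11.01, and that of CNTFR 9.13 against 10.36 to 10.69.

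Effects that differed between treatments, by edgeR's test of the difference itself with Benjamini-Hochberg adjustment, were IL11 (1.82, adjusted p = 7.27e-06), LIF (2.00, adjusted p = 9.71e-05) and CLCF1 (1.04, adjusted p = 0.000241) for TGF-β minus IL-4 + IL-13. IL11 for TGF-β minus IL-6 (1.03, adjusted p = 0.025) and LIF for IL-4 + IL-13 minus IL-6 (-1.19, adjusted p = 0.0243) also differed.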

How the results depend on the processing

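The higher IL11, LIF and CLCF1 after TGF-β than after IL-4 + IL-13 kept direction in 15 of 15 alternatives, with log2 fold changes of 1.72 to 2.05, 1.82 to 2.26 and 0.93 to 1.16, and passed the adjusted p in 14. The exception was the fit with no replicate block, where the adjusted p was 0.203, 0.0786 and 0.399. The cause of the changes below was not tested, other than where fewer libraries entered.

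Members called were, without each batch in turn, 0 to 1 for TGF-β against vehicle, IL-4 + IL-13 against vehicle, TGF-β against IL-6 and IL-4 + IL-13 against IL-6, and 2 to 3 for TGF-β against IL-4 + IL-13. With no replicate block, 0 were called in every comparison. Without batches 2 and 4 the count was 0 for TGF-β against vehicle and against IL-6, and 2 for IL-4 + IL-13 against either. With only the groups compared in the fit it was 0 for TGF-β and for IL-4 + IL-13 against vehicle and 0 for IL-4 + IL-13 against IL-6. Without the vehicle libraries of batches 2 and 4, a choice made after seeing the data, it was 0 for TGF-β against vehicle. By adjusted p alone it was 3 for IL-4 + IL-13 against vehicle and 3 against IL-6.

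Over all genes, DESeq2 called 234 for TGF-β against vehicle, 292 for IL-4 + IL-13, 120 for IL-6, 627 for TGF-β against IL-4 + IL-13, 248 for TGF-β against IL-6 and 255 for IL-4 + IL-13 against IL-6. With edgeR these were 42, 109, 0, 347, 9 and 82. Without each batch in turn they ran from 1 to 40, 60 to 122, 0 to 0, 196 to 444, 0 to 22 and 52 to 109. With no replicate block they were 0, 13, 0, 49, 0 and 13, and by adjusted p alone 102, 186, 0, 874, 23 and 134. TGF-β against vehicle gave 7 without batches 2 and 4, 26 without their vehicle libraries and 0 with only the groups compared. IL-4 + IL-13 against vehicle gave 25 with only the groups compared. TGF-β against IL-6 gave 17 with the filterByExpr filter, 46 without those vehicle libraries and 29 with only the groups compared.

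Signs turned in differences that were not called. Without batches 2 and 4, IL6 stood at 0.32 for TGF-β and 0.21 for IL-6 against vehicle and 0.11 for TGF-β against IL-6, IL11RA at 0.0161 for IL-4 + IL-13, and LIF at 0.0193, IL6ST at 0.0588 and CNTFR at -0.0234 for IL-6. Without the vehicle libraries of batches 2 and 4, IL6 stood at 0.0383 for TGF-β and 0.0428 for IL-6, IL11RA at 0.0244 for IL-4 + IL-13 and IL11 at -0.0445 for IL-6. With no replicate block IL11 stood at -0.0751 for IL-6 and IL6 at 0.15 for TGF-β against IL-6. Without each batch in turn, values against vehicle crossed 0 for TGF-β in IL6 (-0.56 to 0.30), IL6ST (-0.0553 to 0.29) and OSMR (-0.14 to 0.59). For IL-4 + IL-13 they crossed 0 in LIFR (-0.12 to 0.36), OSMR (-0.15 to 0.31), IL11RA (-0.13 to 0.0104) and CNTFR (-0.0086 to 0.15). For IL-6 they did in IL6 (-0.64 to 0.31), IL11 (-0.0291 to 0.16), LIF (-0.25 to 0.16), CLCF1 (-0.0048 to 0.14), IL6ST (-0.27 to 0.0566), OSMR (-0.10 to 0.38) and CNTFR (-0.0220 to 0.12), and for TGF-β against IL-6 in IL6 (-0.29 to 0.21).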
